A study of Mus musculus with 12 samples.

Results

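The immediate early genes Fos, Fosb, Jun, Junb, Egr1, Atf3, Ier2, Ier3, Dusp1 and Nr4a1 were followed in macrophages (Mφ) sorted from mouse hearts. These 10 genes were taken by their symbols from the 24445 gene symbols of the count tables, and all 10 were among the 14608 genes with enough counts to be tested. They were chosen with results of these libraries already known, so their levels and their differences between groups are given as a description, with no p-value for any of them, and nothing is read from the counts of calls among them. Cells were sorted as live CD11b+ CD14+/CD64+ cells from adult male C57BL/6J mice, with 1 library per mouse and 4 mice in each of 3 groups. The early concentric hypertrophy (ECH) group was infused for 14 days with the β-adrenergic agonist isoproterenol (30 mg/kg/day, osmotic pump), the heart failure (HF) group for 28 days at that dose, and the control (Ct) group carried saline pumps. The study's methods give 14 or 28 days for vehicle pumps too, without saying which of these times applied to a single Ct mouse. All hearts, those of Ct mice included, were digested with warm collagenase before the sort, and no undigested sample was analysed here.

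Immediate early genes are switched on within minutes of a stimulus, without new protein synthesis, by factors that are already in the cell, and their mRNAs are short-lived. Growth factors, cytokines, β-adrenergic signals through cyclic AMP and stretch are among the stimuli, and enzymatic dissociation of a tissue induces the same genes in the cells being isolated. Fos and Fosb bind DNA as partners of the Jun proteins in the AP-1 factor, Egr1 is a zinc finger factor and Nr4a1 a nuclear receptor, Atf3 is a stress-induced repressor of inflammatory genes in Mφ, and Dusp1 is a phosphatase that switches off MAP kinases.

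Totals per library lay between 88466559 and 111180291 counts, and the number of genes with at least 1 count between 13600 and 15940. A count of 2 was more frequent among genes than a count of 1 or of 3 in all 12 libraries, so counts may not equal independent fragments. Levels are given as counts per 1000000 counts (CPM) after scaling of the library sizes with edgeR's TMM method. Library numbers in the labels allow a set A (all Ct libraries with ECH 1 and 2) and a set B (all HF libraries with ECH 3 and 4) to be inferred, which neither the labels nor the paper states. Ct and HF cannot be told apart from these sets. The labels also give HF 1 and 2 a shared prefix (C13), as they do ECH 3 and 4 (C23), Ct 1 and 2 (C19) and Ct 3 and 4 (C24). The summed CPM of 12 Mφ markers lay between 31249 and 43356 in all libraries, and none of these markers was at 0 in a whole group.

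The promoters of 8 of the 10 genes are in the RefSeq promoter set for GRCm38.p6, and 5 are printed here as examples that differ in the number and form of the letters of sites for cyclic AMP and AP-1 signalling. Fosb and Junb, which hold such letters as well, and Ier3 are not printed. Each sequence is the 250 bases upstream of the transcription start, written 5′ to 3′ on the strand of the gene. Capitals mark TGACG, the core of the cyclic AMP response element (CRE), on either strand, and TGACNTCA, a site first described in the Jun promoter, on either strand. The full CRE, TGACGTCA, holds the core on both strands and is also a match to TGACNTCA. The windows are chr12:85473640-85473889, plus strand for Fos, chr17:26508473-26508722, minus strand for Dusp1, chr15:101266596-101266845, plus strand for Nr4a1, chr1:191183334-191183583, minus strand for Atf3 and chr4:95052223-95052472, minus strand for Jun.
Fos: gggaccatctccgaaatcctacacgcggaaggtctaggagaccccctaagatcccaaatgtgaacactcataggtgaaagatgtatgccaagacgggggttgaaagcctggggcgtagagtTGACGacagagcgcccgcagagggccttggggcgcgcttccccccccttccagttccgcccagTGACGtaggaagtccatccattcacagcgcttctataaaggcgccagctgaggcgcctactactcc
Dusp1: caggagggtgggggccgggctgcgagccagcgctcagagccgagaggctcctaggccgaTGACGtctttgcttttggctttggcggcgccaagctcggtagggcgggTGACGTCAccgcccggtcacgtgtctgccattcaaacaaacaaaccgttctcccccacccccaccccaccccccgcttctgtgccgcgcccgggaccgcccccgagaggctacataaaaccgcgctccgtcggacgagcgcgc
Nr4a1: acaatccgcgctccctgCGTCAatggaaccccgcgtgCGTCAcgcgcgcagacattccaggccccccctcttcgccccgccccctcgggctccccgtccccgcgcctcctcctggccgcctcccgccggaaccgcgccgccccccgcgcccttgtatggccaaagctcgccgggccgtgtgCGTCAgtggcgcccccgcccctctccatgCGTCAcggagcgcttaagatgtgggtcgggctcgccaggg
Atf3: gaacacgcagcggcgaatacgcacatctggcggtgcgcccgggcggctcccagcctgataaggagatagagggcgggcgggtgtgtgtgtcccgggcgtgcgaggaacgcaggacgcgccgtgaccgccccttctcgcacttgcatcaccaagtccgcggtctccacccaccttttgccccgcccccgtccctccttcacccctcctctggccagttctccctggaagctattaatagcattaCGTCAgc
Jun: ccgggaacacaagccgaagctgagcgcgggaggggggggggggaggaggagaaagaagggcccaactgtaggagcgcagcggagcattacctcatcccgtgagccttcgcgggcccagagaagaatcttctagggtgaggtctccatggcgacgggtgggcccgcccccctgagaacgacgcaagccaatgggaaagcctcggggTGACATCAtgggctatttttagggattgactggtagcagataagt

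The CRE core was found in 6 of the 8 promoters (Fos, Fosb, Junb, Atf3, Dusp1 and Nr4a1), against 17.8% of 32851 mouse promoter windows of the same length. In Fos it began 129 and 66 bases before the start, and a TATAAA box lay between them and the start, from −33 to −28. Nr4a1 held 4 copies on the opposite strand, the nearest from −40 to −36. The full palindrome TGACGTCA was found in Dusp1 alone among the 8, from −143 to −136, and in 1.55% of all windows. TGACNTCA was in Dusp1 and in Jun (TGACATCA, −45 to −38) and in 7.49% of all windows. No window of the 8 held TGANTCA, the AP-1 site (6.75% of all windows), or a CArG box, the site of serum response factor (1.47%). Bases farther upstream were not searched, and Egr1 and Ier2 had no entry in the promoter set. GCGGGGGCG, an EGR site, was found in Fosb and Nr4a1 (2.57% of all windows). CCAAT was in Jun, Junb and Ier3 (33.8%). These are matches of letters in a fixed window and say nothing of binding in these cells.

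Together the 10 genes took up 3.43% ± 0.288 (SD, n = 4) of all counts in Ct Mφ, 2.26% ± 0.646 in ECH Mφ and 2.10% ± 0.555 in HF Mφ. The 4 Ct libraries lay between 3.18% and 3.76%, all above the ECH libraries (1.55% to 3.10%) and the HF libraries (1.55% to 2.70%). These are shares of raw counts. After TMM scaling the groups Ct and ECH overlapped, since the summed level in ECH 1 (32927.5 CPM) was above Ct 3 (32697.4) and Ct 4 (30450.3). In bulk samples such as these, fewer cells with the transcripts and less RNA of them per cell cannot be told apart. Per kilobase of exon, Fos was the 8th highest of 14094 genes, averaged over the 12 libraries. Dusp1 ranked 23rd, Junb 29th, Jun 39th, Ier3 40th, Ier2 46th, Egr1 62nd and Atf3 63rd, and only Nr4a1 (426th) and Fosb (1596th) ranked lower. In Ct Mφ the mean level per kilobase was 3907 ± 353 CPM for Fos (SD, n = 4), 1922 ± 200.5 CPM for Dusp1 and 1819 ± 266 CPM for Junb, so Dusp1 and Junb did not differ beyond their spread. Jun (1378 ± 210.2), Ier2 (1240 ± 207) and Ier3 (1179 ± 315 CPM per kilobase) followed, each within the spread of its neighbour, as were Atf3 (969 ± 230.4) and Egr1 (912 ± 125). Nr4a1 was at 157 ± 50.9 CPM per kilobase and Fosb at 59.2 ± 40.5 CPM per kilobase.

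**Figure D1:**
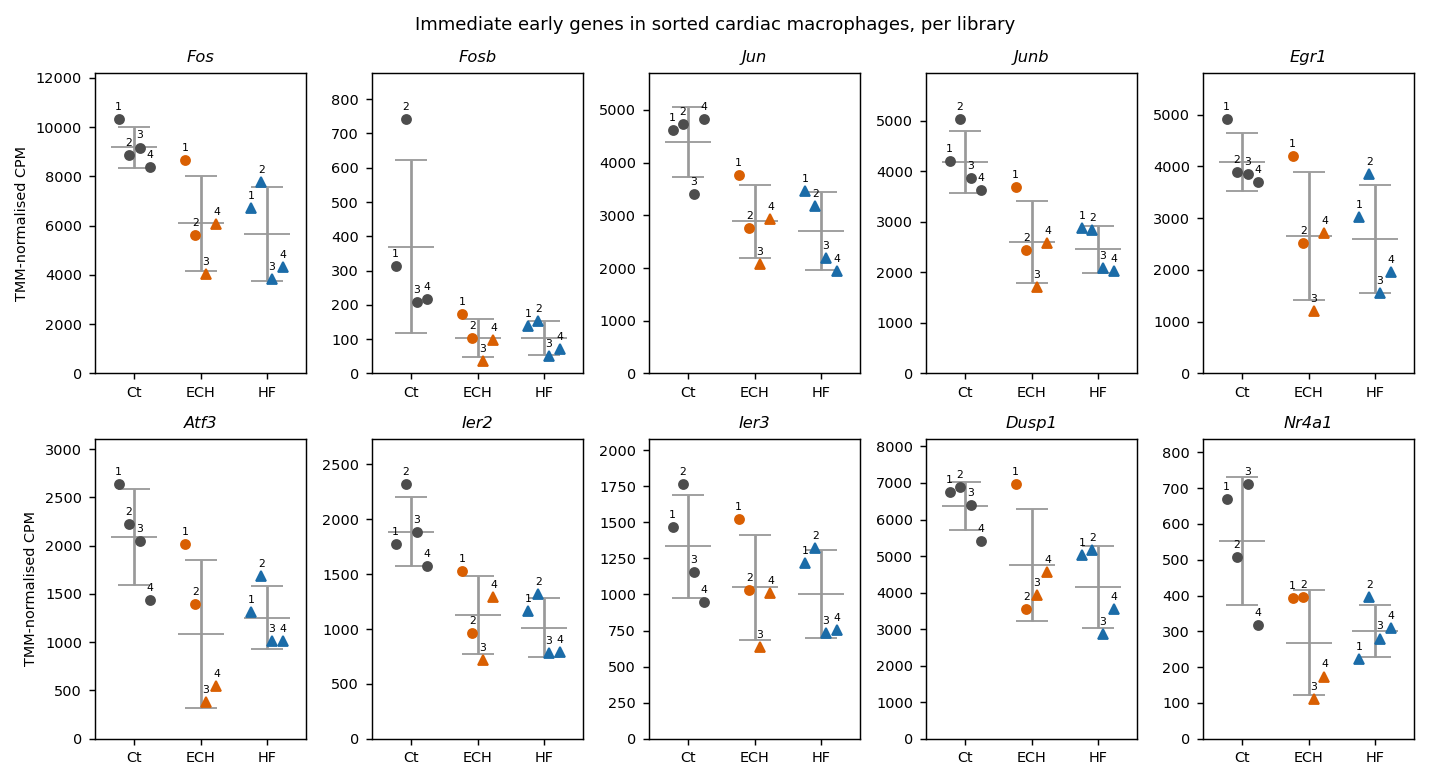
TMM-normalised CPM of each immediate early gene in every library (points, numbered by mouse), by group, with the group mean and SD (grey bars, n = 4). Circles are libraries of the inferred set A and triangles those of set B. For Fos the Ct libraries sit between 8378 and 10333 CPM and the HF libraries between 3826 and 7770.2 CPM.

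Fos (chromosome 12 of GRCm38, 85473890 to 85477273), the AP-1 subunit that most stimuli induce first, was at 10333, 8871, 9176 and 8378 CPM in Ct 1 to 4. The ECH libraries held 8664, 5631, 4035 and 6061 CPM, and the HF libraries 6734, 7770.2, 3826 and 4332 CPM. ECH 1 reached the Ct range and the other ECH libraries did not, while every HF library was below every Ct library. The mean was 9189.6 ± 830.0 CPM in Ct (SD, n = 4), 6098 ± 1919.8 in ECH and 5665 ± 1891 in HF. Fosb (chromosome 7, 19302696 to 19310051), a close relative of Fos, was at 313, 742, 208 and 216 CPM in Ct. It was at 174, 103, 36.3 and 98.1 CPM in ECH and at 138, 153, 50.0 and 72.2 CPM in HF. All ECH and all HF libraries were below the lowest Ct library, and Ct 2 stood far above the other Ct libraries. Fosb had the widest span of the 10 genes, 20.4-fold between ECH 3 and Ct 2, while Dusp1 had the narrowest, 2.44-fold.

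Jun (chromosome 4, 95049034 to 95052222), the partner that Fos needs to bind DNA, was at 4618, 4735, 3397 and 4828 CPM in Ct. It stood at 3771, 2766, 2083 and 2936 CPM in ECH and at 3471, 3180.2, 2195 and 1949 CPM in HF. Ct 3 was low for this gene, and only ECH 1 and HF 1 exceeded it. Junb (chromosome 8, 84974484 to 84978718), a Jun relative that weakens the activity of Jun at some AP-1 sites, was at 4207, 5034, 3867 and 3634 CPM in Ct. In ECH it was at 3689, 2445, 1712 and 2573 CPM, with ECH 1 just inside the Ct range. The HF libraries, at 2879, 2835, 2094 and 2024 CPM, were all below Ct. Exons of Junos overlap those of Jun, and exons of Prdx2 those of Junb, in the GENCODE annotation, and the strand setting of the counting is unknown here, so a part of these counts could come from the neighbours.

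Atf3 (chromosome 1, 191170296 to 191218039) was at 2635, 2223, 2049.8 and 1440.4 CPM in Ct. The ECH libraries were split, with 2016 and 1399 CPM in ECH 1 and 2 against 382 and 548 CPM in ECH 3 and 4. HF libraries held 1309, 1689.9, 1008 and 1009 CPM, and HF 2 was the only one above Ct 4. Nr4a1 (chromosome 15, 101254269 to 101274795) showed the same split in ECH, with 394 and 395 CPM against 112 and 174 CPM. Its Ct libraries were uneven, at 670.3, 506, 711 and 319 CPM, and its HF libraries held 222, 396, 280.0 and 311 CPM. The low value of Ct 4 overlapped with those of both other groups. Egr1 (chromosome 18, 34859823 to 34864984) was at 4917, 3888, 3862 and 3692 CPM in Ct, at 4207, 2514, 1198 and 2723 CPM in ECH and at 3030.3, 3849, 1547 and 1954 CPM in HF. ECH 1 and HF 2 were in the Ct range for Egr1, and the other 6 libraries of infused mice were below it.

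Ier2 (chromosome 8, 84661331 to 84662852), a small nuclear protein of the immediate early response, was at 1773, 2319, 1883 and 1572 CPM in Ct. It was at 1529.7, 968, 716 and 1289.7 CPM in ECH and at 1164, 1315, 784 and 791 CPM in HF, and no library of either group reached the lowest Ct value. Ier3 (chromosome 17, 35821684 to 35822923), which has a part in cell survival, was at 1466, 1764, 1155 and 951 CPM in Ct. With 1521, 1028, 636 and 1010.2 CPM in ECH and 1217, 1319, 732 and 752 CPM in HF, its groups overlapped, and ECH 1 was above Ct 1. Dusp1 (chromosome 17, 26505590 to 26562128) was at 6751, 6893, 6389 and 5419.5 CPM in Ct. ECH 1 held 6963 CPM, the highest of all 12 libraries, and ECH 2 to 4 held 3539, 3929 and 4552 CPM. HF libraries were at 5025, 5153, 2858 and 3554 CPM, all below Ct. Exons of Ergic1 overlap those of Dusp1 in the annotation.

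For most of these genes the Ct libraries varied least. The coefficient of variation was lower in Ct than in both ECH and HF for 8 of the 10 genes (Fosb and Nr4a1 were the exceptions), against 16.3% of all genes tested. Its median over the 10 genes was 15.99% in Ct, 33.5% in ECH and 27.3% in HF, while over all genes it was highest in Ct, at 32.6%, against 21.6% in ECH and 23.01% in HF.

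Against Ct, each of the 10 genes had a lower mean in ECH Mφ. The fitted log2 fold change ran from −0.35 (SE 0.28) for Ier3 to −1.84 (SE 0.52) for Fosb, with a median of −0.65, beside a median of 0.01 over all genes tested. Nr4a1 was at −1.04 (SE 0.37) and Atf3 at −0.94 (SE 0.42), Ier2 at −0.74 (SE 0.24) and Junb at −0.68 (SE 0.21). Egr1 (−0.62, SE 0.34), Jun (−0.61, SE 0.22), Fos (−0.59, SE 0.25) and Dusp1 (−0.42, SE 0.23) lay closer to zero. In percent of the Ct level, ECH Mφ held 27.9% of Fosb, 66.4% of Fos and 78.6% of Ier3. Without Ct 2, Fosb was at −1.25, or 41.95% of the Ct level. A gene was called at a false discovery rate (FDR, Benjamini-Hochberg over all genes tested) under 0.05 and a change of at least 2-fold, by edgeR's quasi-likelihood test. By this rule 0 of the 10 genes were called, beside 0.356% of all genes. At an unadjusted p under 0.05, 7 were lower (5.89% of all genes), and 4 without ECH 3. With DESeq2 1 was called, Fosb (1.7% of all genes), with edgeR's likelihood ratio test 1, also Fosb (1.49%), and with limma-voom 0 (0.575%). The groups did not overlap for Fosb and Ier2, beside 3.64% of all genes that were lower in every ECH library than in every Ct library. Since the genes were chosen on these libraries, nothing is read from these counts.

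HF Mφ, compared with the same Ct libraries, were likewise lower for all 10 genes, with a median log2 fold change of −0.72, beside −0.01 over all genes. Fosb was again farthest from zero, at −1.84 (SE 0.52), or 27.9% of the Ct level, and Ier3 nearest, at −0.41 (SE 0.28). Without Ct 2, Fosb was at −1.25, or 42.1% of the Ct level. Ier2 (−0.90, SE 0.24), Nr4a1 (−0.87, SE 0.37), Junb (−0.77, SE 0.21) and Atf3 (−0.74, SE 0.42) followed Fosb. For Jun the value was −0.70 (SE 0.22), for Fos −0.70 (SE 0.25), for Egr1 −0.66 (SE 0.34) and for Dusp1 −0.62 (SE 0.23). The call rule was met by 0 of the 10 genes with the quasi-likelihood test (0.377% of all genes), by 1, Fosb, under DESeq2 (2.3%) and under the likelihood ratio test (1.87%), and by 0 with limma-voom (0.89%). At an unadjusted p under 0.05, 7 were lower (8.72%), and 4 without HF 3. The groups did not overlap for Fos, Fosb, Junb, Ier2 and Dusp1, beside 4.45% of all genes. Both comparisons share the Ct libraries. Under all 3 scalings (TMM, median ratio and total counts) the 10 genes kept a value below zero in both.

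ECH and HF Mφ were compared directly as well. The log2 fold changes, ECH relative to HF, lay between −0.21 (SE 0.42) for Atf3 and 0.19 (SE 0.23) for Dusp1, with a median of 0.07 beside 0.02 over all genes. By the quasi-likelihood test 0 of the 10 genes were called (0% of all genes), and 0 had an unadjusted p under 0.05, while 2.81% of all genes were lower and 5.17% higher at that p. DESeq2 (0.322% of all genes), the likelihood ratio test (0.329%) and limma-voom (0%) also called 0 of the 10. Atf3 was called, at −1.43 in both cases, when the library set was a covariate (1.86% of all genes) and within set B alone (2.49%). Without HF 1 and 2 the values ran up to 0.75 for Fosb. The sign of this comparison rested on single libraries: without ECH 1 all 10 genes were lower in ECH than in HF (−0.69 to −0.03), and without ECH 3 all 10 were higher (0.08 to 0.32).

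**Figure D2:**
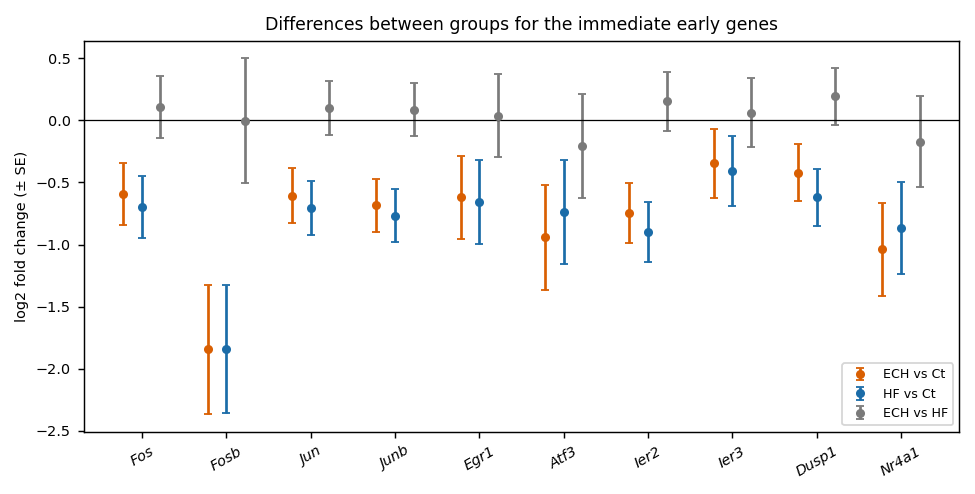
Log2 fold change of each immediate early gene in the 3 comparisons, as fitted by edgeR (points) with its SE (bars). All values against Ct are below 0, from −0.35 to −1.84 for ECH and from −0.41 to −1.84 for HF, and those of ECH against HF lie between −0.21 and 0.19.

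The order of the libraries within a group differed between genes. Averaged over their standardised log2 CPM, Ct 2, Ct 1 and Ct 3 were the 3 highest libraries, ECH 1 came next, above Ct 4, and HF 4, HF 3 and ECH 3 were the lowest. ECH 3 held the lowest value of all 12 libraries for 7 of the genes. HF 1 and 2 (C13) were both above HF 3 and 4 for 9 of the 10 genes, against 16.7% of all genes, and the ratio of their means ran from 1.05 for Nr4a1 to 2.38 for Fosb. ECH 3 and 4 (C23) were both below ECH 1 and 2 for 4 of the genes, against 26.6% of all genes, with ratios from 0.272 for Atf3 to 0.808 for Dusp1. Over the 10 genes ECH 4 was nearer to ECH 2 (median absolute log2 difference 0.11) than to ECH 3 (0.61), while HF 1 and 2 lay 0.16 apart and 0.60 to 0.80 from HF 3 and 4. Ct 1 and 2 (C19) were both above Ct 3 and 4 for 6 of the genes, against 16.7% of all genes, and Ct 1 was as near to Ct 3 (0.26) as to Ct 2 (0.26). Without HF 1 and 2, the median log2 fold change of HF against Ct was −1.06 in place of −0.72, and Fosb stood at −2.60.

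**Figure D3:**
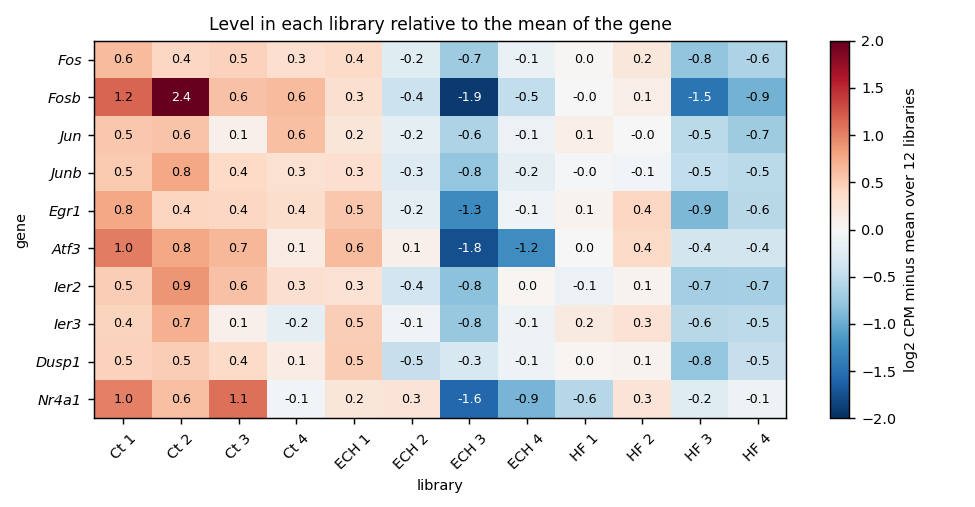
Log2 CPM of each immediate early gene in each of the 12 libraries minus the mean of the gene over all 12 (colour and numbers). ECH 3 is the lowest library for 7 of the 10 genes, and the split of ECH 1 and 2 from ECH 3 and 4 is widest for Atf3.

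The inferred library sets bear on these differences. Within set A, the mean of ECH 1 and 2 was below that of Ct for all 10 genes, from −1.42 for Fosb to −0.07 for Ier3. The median log2 fold change was −0.40 in place of −0.65. ECH 1 alone was below every Ct library only for Fosb and Ier2. Within set B, the mean of ECH 3 and 4 was below that of HF for 9 genes. Values there ran from −1.43 for Atf3 to 0.03, with a median of −0.24 in place of 0.07. With the set as a covariate, ECH against Ct ran from −1.41 to −0.07 with a median of −0.39. HF against Ct could then be estimated only through the ECH libraries, and its values ran from −0.79 for Fosb to 1.14 for Atf3, with 6 of the 10 genes below zero and a median of −0.22. The counts at an unadjusted p under 0.05 also changed. With the set as a covariate, 1 of the 10 genes (Fosb) was lower in ECH against Ct at that p in place of 7 (3.66% of all genes), and in HF against Ct 0 were lower in place of 7 (6.67%) and 1 (Atf3) was higher (8.41%). Within set A, 2 (Fosb and Ier2) were lower in ECH than in Ct (2.64%), and within set B, 2 (Atf3 and Nr4a1) were lower in ECH than in HF (11.7%). Single libraries moved some values against Ct by more than 1.5 times: in ECH, Ier3 was at −0.18 without Ct 2, −0.58 without ECH 1 and −0.17 without ECH 3, Atf3 at −1.43 and Dusp1 at −0.67 without ECH 1, and Egr1 at −0.38 without ECH 3. In HF, Ier3 was at −0.24 without Ct 2.

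Over the 12 libraries the 10 genes varied together. Pearson's r of their log2 CPM had a median of 0.87 over the 45 pairs, from 0.55 to 0.98, and 13 pairs (28.9%) were over 0.9, against 0.0957% of all pairs of genes tested. The points share library, depth and preparation, and no test is given. After the group means were subtracted the median was 0.80, from 0.22 to 0.97, so the genes also varied together among mice of the same group. Junb with Ier2 (r = 0.98), Fos with Egr1 and Fosb with Junb (both 0.97) were the closest pairs. Atf3 and Nr4a1 formed a pair of their own, at 0.93, and Nr4a1 was least like Dusp1 (0.55) and Jun (0.56). Against the mean of the other members, r was 0.98 for Junb, 0.96 for Fos, 0.85 for Atf3 and 0.75 for Nr4a1.

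**Figure D4:**
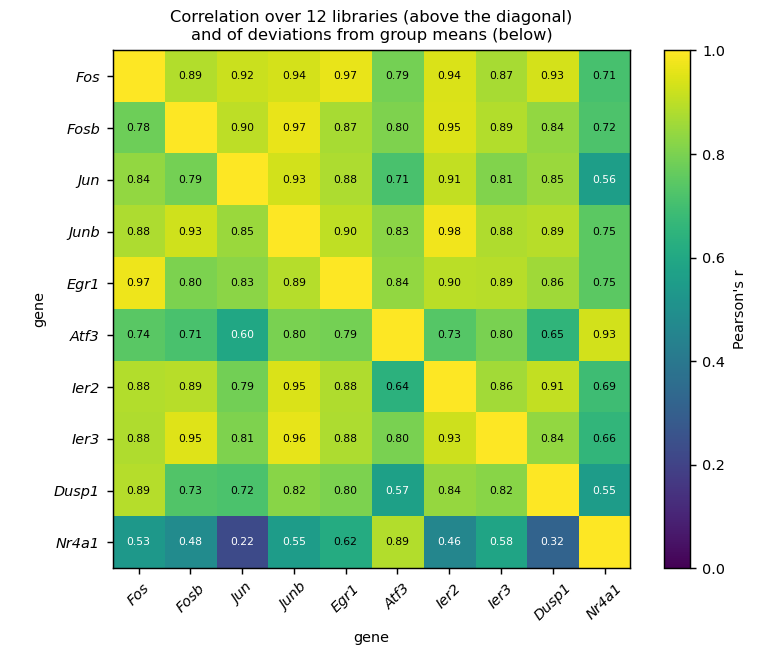
Pearson's r between the immediate early genes over 12 libraries (above the diagonal) and after the group means were subtracted (below), on a colour scale from 0 to 1. Nr4a1 stands apart from all but Atf3, with r of 0.93 over all libraries and 0.89 within groups.

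Among 11932 other genes with a mean of at least 1 CPM, Klf2, a Krüppel-like factor that restrains Mφ activation, was most like the mean of the 10 (r = 0.98 over 12 libraries). It was at 1764 CPM in Ct, 897 in ECH and 875 in HF, on average. Next came Klf6, Irf1 and Btg2 (each r = 0.98). Irf1, an interferon-induced factor, was at 573, 335 and 337 CPM in the same order, and Btg2, an antiproliferative early gene, at 2880, 1636 and 1564 CPM. Jund (r = 0.98), Icam1 (0.97), Ppp1r15a (0.96) and Zfp36 (0.95) followed. Icam1, an adhesion molecule, was at 351, 167 and 179 CPM. The last of the 10 genes most like them were Mir24-2 (0.94), counted at 0.662 to 1.63 CPM on average, and Trmo (0.94). Over all candidates 24 genes had an r above 0.9, and 9 of them were among the 112 related genes of the lists described next that had this level.

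Within the AP-1 family the share of Fosb was lower in both infused groups than in Ct. Per kilobase, Fos made up 98.2% ± 1.23 (SD, n = 4) of the summed level of Fos, Fosb, Fosl1 and Fosl2 in Ct, 99.2% ± 0.136 in ECH and 99.1% ± 0.102 in HF. Fosb was at 1.49% ± 1.04, 0.594% ± 0.182 and 0.653% ± 0.126 of that sum, with at least 0.845% in each Ct library and at most 0.751% in ECH and 0.767% in HF. Ct 2 held 3.04%, and without it the Ct mean was 0.977% ± 0.141 (SD, n = 3). Of the Jun family, Junb made up 45.2% ± 3.26 in Ct, 43.8% ± 1.49 in ECH and 44.0% ± 1.89 in HF, and Jun 34.2% ± 3.86, 35.5% ± 1.49 and 34.3% ± 1.84. Jund, the member of the family that most cells hold at a steady level, took the remaining 20.6% ± 0.836, 20.7% ± 0.928 and 21.6% ± 0.456. For Jund itself the level was 1387 ± 219 CPM in Ct, 887 ± 244 in ECH and 884 ± 209 in HF, a log2 fold change of −0.64 and −0.65 (edgeR FDR 0.251 and 0.190). Over the alternatives the HF value of Jund ran from −0.98 to −0.15.

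Of 14 AP-1 partners, 0 were called in ECH against Ct, and 2 were higher and 5 lower at an unadjusted p under 0.05 by edgeR's quasi-likelihood test. The median log2 fold change was −0.42. Jdp2, a repressor that pairs with Jun, went the other way from Jun: it was at 49.0, 108, 61.0 and 56.3 CPM in Ct and at 192, 119, 150.4 and 126 CPM in ECH. All ECH libraries were above all Ct libraries for Jdp2 (log2 fold change 1.10, SE 0.25, edgeR FDR 0.0843, 0.00241 to 0.760 over the alternatives), and its HF mean was 79.7 ± 18.7 CPM. DESeq2, limma-voom, the likelihood ratio test and the fit without Ct 2 each called it. Fosl2 was at 102 ± 72.0 CPM in Ct, 52.4 ± 8.79 in ECH and 46.4 ± 10.6 in HF, a log2 fold change of −0.96 and −1.13 (edgeR FDR 0.314 and 0.181) that fell to −0.36 and −0.53 without Ct 2, which held 206 CPM. DESeq2 called Fosl2 in HF (FDR 0.0363). Batf3, a factor of dendritic cells and Mφ, was at 28.9 ± 8.86, 14.5 ± 9.32 and 21.6 ± 2.63 CPM, and its difference between ECH and Ct was −0.995 (edgeR FDR 0.334). Over the alternatives this difference ran from −1.35 to −0.36. In HF against Ct 0 of the 14 were called, with 4 lower at an unadjusted p under 0.05 and a median of −0.41. DESeq2, the likelihood ratio test and limma-voom were counted over all related genes together, given last.

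The other immediate early transcription factors, a list of 20, had a median of −0.69 in ECH and −0.56 in HF against Ct. In ECH 0 were called by edgeR's quasi-likelihood test, with 7 lower and 2 higher at an unadjusted p under 0.05. In HF 1 rose by the call rule. This was Bhlhe40, a repressor in the circadian system and in Mφ: it was at 29.8, 16.7, 41.4 and 33.04 CPM in Ct, at 68.5, 106, 57.0 and 38.9 CPM in ECH and at 76.0, 76.9, 87.96 and 110.0 CPM in HF. Every HF library was above every Ct library, the opposite of Fos (log2 fold change 1.54, SE 0.31, edgeR FDR 0.0455). The call was lost when any of 9 of the 12 libraries was left out, with FDR values up to 0.141. It was also lost without both HF 1 and 2 (0.139) or both Ct 2 and HF 1 (0.0930), and with the replicate number as a block (0.129). The FDR of Bhlhe40 over the alternatives spanned 7.99e-05 to 0.141. In ECH its value was 1.16 (SE 0.30, edgeR FDR 0.128, 0.00907 to 0.577 over the alternatives), and DESeq2 and the likelihood ratio test called it there too. Klf6, a growth-related Krüppel-like factor, was at 2595 ± 272 CPM in Ct, 1759.5 ± 470.3 in ECH and 1757 ± 477 in HF, with −0.56 in both (edgeR FDR 0.314 and 0.236). Its HF value ran from −0.94 to −0.16 over the alternatives. Egr2, a relative of Egr1, stood at 289 ± 60.9, 290.4 ± 162 and 274 ± 90.2 CPM, and Nr4a2, a relative of Nr4a1, at 12.5 ± 4.96, 10.96 ± 6.17 and 13.2 ± 4.46 CPM in the same order. In ECH 3, where Egr1 and Nr4a1 were lowest, Egr2 was at 84.4 CPM and in the other ECH libraries at 245 to 453 CPM.

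A further list held 31 early feedback and response genes. Some of them switch off signals (the Dusp genes, Nfkbia) or degrade mRNAs (Zfp36), and others, such as Ptgs2, Mcl1 and Arc, do neither. Their medians were −0.36 in ECH and −0.43 in HF, 10 and 9 were lower at an unadjusted p under 0.05, 2 and 2 higher, and 0 were called in either by edgeR's quasi-likelihood test. Btg2 was at −0.82 in ECH and −0.88 in HF (edgeR FDR 0.151 and 0.110), and no library of either group reached the lowest Ct library. Its HF value ran from −1.19 to −0.32 over the alternatives. Zfp36, which destroys cytokine mRNAs, was at 5498 ± 401 CPM in Ct, 3682 ± 869.6 in ECH and 4051 ± 896 in HF (−0.58 and −0.44, edgeR FDR 0.232 and 0.277). Over the alternatives the HF value of Zfp36 ran from −0.73 to −0.02. Rhob was at 306 ± 100.7 CPM in Ct, 163 ± 28.5 in ECH and 153 ± 40.6 in HF, with −0.913 and −1.004 (edgeR FDR 0.126 and 0.0886), and DESeq2 and the likelihood ratio test called it in HF (FDR 0.00263 and 0.00511). Nfkbia, the inhibitor of NF-κB, was at −0.57 and −0.62 (edgeR FDR 0.418 and 0.277), values that became −0.30 and −0.35 without Ct 2. Dusp2, a phosphatase related to Dusp1, was at 93.4 ± 29.0, 54.3 ± 28.8 and 64.3 ± 9.47 CPM, with −0.78 in ECH (edgeR FDR 0.362).

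Of the 31, 7 were above zero in each comparison with Ct. The genes that were higher at an unadjusted p under 0.05 were Sgk1 in both, Rgs1 in ECH (log2 fold change 0.47) and Gadd45g in HF (0.44), the last pair named after their values were seen. Sgk1, a kinase induced by glucocorticoids and serum, was at 136, 151, 161 and 114 CPM in Ct and at 227, 281, 341 and 253 CPM in ECH. Its FDR passed the threshold but its log2 fold change of 0.97 (SE 0.15, edgeR FDR 0.0202, 5.58e-07 to 0.602 over the alternatives) fell short of 2-fold, which it passed with limma-voom (1.02) and without any single one of Ct 2, Ct 3, ECH 1 and ECH 4 (1.01 to 1.05). In HF it was at 207, 222, 244 and 261 CPM, again above every Ct library (0.73, SE 0.15, edgeR FDR 0.0562). Over the 12 libraries Sgk1 ran against the mean of the 10 genes, with r = −0.80. Sik1, a kinase induced through the CRE by cyclic AMP, was at 55.7, 37.9, 36.2 and 46.0 CPM in Ct, at 33.3, 23.2, 66.7 and 69.0 CPM in ECH and at 17.9, 17.6, 14.3 and 23.8 CPM in HF. All HF libraries were below all Ct libraries (−1.26, SE 0.31, edgeR FDR 0.103, 0.00546 to 0.351 over the alternatives), a fall that DESeq2, the likelihood ratio test, the fit of only these groups and the fit with the library set each called. ECH 3 and 4, the lowest ECH libraries for Atf3 and Nr4a1, were the highest for Sik1.

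**Figure D5:**
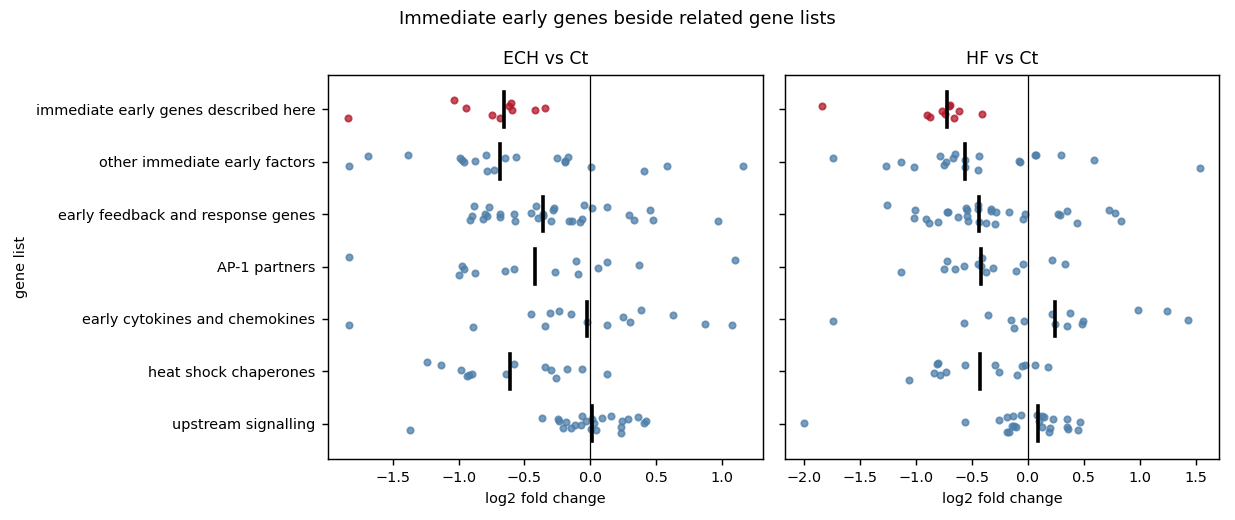
Log2 fold change of ECH and of HF against Ct for the 10 immediate early genes (red points) and for 6 lists of related genes (blue points), with the median of each list (black bars). The medians of the members are −0.65 and −0.72, and those of upstream signalling genes 0.01 and 0.09.

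Early cytokines and chemokines, 15 genes, had a median of −0.02 in ECH and 0.25 in HF, with 8 and 6 of them below zero. At an unadjusted p under 0.05, 2 were lower in ECH and 1 in HF, 0 were higher, and 0 were called by edgeR's quasi-likelihood test. Il6 was at 31.8 ± 22.4 CPM in Ct, 8.91 ± 3.57 in ECH and 9.49 ± 2.98 in HF, with −1.83 and −1.74 (edgeR FDR 0.126 and 0.127, 0.00515 to 0.924 and 0.00836 to 0.343 over the alternatives). DESeq2 and the likelihood ratio test each called Il6 in both comparisons. Il1b was at 1178 ± 339, 635 ± 374 and 794 ± 265 CPM, with −0.89 in ECH (edgeR FDR 0.400). Tnf was at 114 ± 29.6 CPM in Ct, 149.5 ± 91.7 in ECH and 161 ± 57.6 in HF. Heat shock chaperones, 14 genes, had medians of −0.61 in ECH and −0.42 in HF, with 13 and 12 of them below zero, 2 and 1 at an unadjusted p under 0.05 and 0 called. Their summed level was 20723 CPM in Ct 1 and 9237 to 10516 CPM in the other Ct libraries, 4189 to 12015 CPM in ECH and 6143 to 11919 CPM in HF. Hspa1a was at 3030.0 ± 1566, 1604 ± 1097 and 1757 ± 851 CPM, and Hspa1b, a near-identical copy with which it can share reads, at 2821 ± 2068, 1288 ± 1101 and 1577 ± 953 CPM. Hsp90aa1 was at 1008 ± 469 CPM in Ct, 426 ± 278 in ECH and 484 ± 177 in HF (−1.24 and −1.06, edgeR FDR 0.315 and 0.298), with the lowest values in ECH 3 and 4 (166 and 206 CPM). With the library set as a covariate its HF value turned to 0.78 (edgeR FDR 0.57). Hspb1 was at 25.1 ± 12.3, 12.7 ± 4.90 and 15.2 ± 7.24 CPM, with −0.98 in ECH (edgeR FDR 0.362) and −0.58 without Ct 1. Enzymatic digestion is known to induce chaperones as well as immediate early genes, and its part in either was not tested.

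Genes that carry the signal to the immediate early promoters, from the β-adrenergic receptors through cyclic AMP and the MAP kinases to the factors CREB and SRF, had medians near zero (0.01 in ECH and 0.09 in HF, 24 genes). By edgeR's quasi-likelihood test 0 of them were called in ECH, and 1 was higher and 1 lower at an unadjusted p under 0.05, while in HF 2 were higher and 1 lower at that p. Adrb1, the β1-adrenergic receptor, was the gene of this list that was called: it was at 12.3, 32.96, 15.3 and 18.6 CPM in Ct, at 7.76, 6.20, 7.75 and 9.01 CPM in ECH and at 3.73, 5.28, 5.598 and 5.25 CPM in HF. It fell in HF against Ct, with a log2 fold change of −1.99 (SE 0.31, edgeR FDR 0.0159, 1.24e-07 to 0.136 over the alternatives). The call was lost without HF 2 or HF 3 (FDR up to 0.0561), without both HF 1 and 2 (0.136) and with the library set as a covariate (0.0591). In ECH it was at −1.37 (SE 0.30, edgeR FDR 0.0732, 0.00136 to 0.777 over the alternatives), with every library below every Ct library, and DESeq2, the likelihood ratio test and limma-voom each called it there. Creb1 was at 77.3 ± 15.5, 65.1 ± 10.7 and 68.0 ± 6.50 CPM in Ct, ECH and HF, and Srf at 24.7 ± 5.29, 21.4 ± 5.95 and 22.5 ± 2.38 CPM (SD, n = 4) in the same order.

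Over the 114 genes of these lists, some of which are in more than 1 list, 0 were called in ECH against Ct with the quasi-likelihood test (0.356% of all genes), 4 with DESeq2 (1.7%), 5 with the likelihood ratio test (1.49%) and 3 with limma-voom (0.575%). At an unadjusted p under 0.05, 25 were lower and 7 higher in ECH, beside 5.89% and 6.03% of all genes. In HF 1 was called higher and 1 lower with the quasi-likelihood test (0.377%), while DESeq2 called 8 (2.3%), the likelihood ratio test 8 (1.87%) and limma-voom 3 (0.89%). At the unadjusted p 22 were lower and 6 higher in HF, beside 8.72% and 7.35%. In ECH against HF 0 were called, and 6 were higher and 3 lower at an unadjusted p under 0.05, beside 5.17% and 2.81% of all genes. DESeq2 called 1 (0.322% of all genes) and the likelihood ratio test 1 (0.329%). Since the lists were chosen with earlier results of these data known, nothing is read from these counts.

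Of the markers of other cell types, the B cell sum and the T and NK cell sum moved with the 10 genes over the libraries. The part of other cell types in the differences was not tested. The summed level of the 6 of 8 B cell markers that are in the tables was 102 to 487 CPM in Ct, 42.5 to 86.6 in ECH and 57.6 to 83.3 in HF, and that of 9 of 10 T and NK cell markers 18.3 to 95.6, 4.21 to 37.1 and 11.3 to 24.7 CPM. Against the mean of the 10 genes over 12 libraries, r was 0.78 for the B cell sum and 0.77 for the T and NK cell sum. The sum of the monocyte markers (8 genes) ran the other way, with 363 to 752 CPM in Ct, 709 to 1088 in ECH and 719 to 1453 in HF, and r = −0.86. The single monocyte markers were split, with 5 above and 3 below zero in ECH against Ct, and 4 above and 4 below in HF. Neutrophil markers (10 genes) summed to 368 to 1761, 194 to 697 and 131 to 1267 CPM, with r = 0.33, and Camp, a granule gene of immature neutrophils, was at 0 in all HF libraries. The Mφ marker sum had r = −0.06. The other 8 dendritic cell, 10 endothelial, 9 fibroblast and 10 cardiomyocyte markers had r between −0.42 and 0.40, and their sums lay between 30.4 and 478 CPM in each library. None of the B cell and T and NK cell markers in the tables was at 0 in a whole group.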

How the data were processed

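RNA of sorted cardiac Mφ from 12 mice was sequenced, and samples were grouped by the condition in their labels (Ct, ECH and HF, 4 each). The authors amplified cDNA with SMART-Seq v4, sequenced on a NextSeq instrument, trimmed with Trimmomatic, aligned with TopHat2 to mm10 and counted with featureCounts. The values deposited by the authors are raw counts per gene symbol, without normalization. The sources used here name neither software versions nor annotation nor strand setting, and the libraries carry no molecular identifiers. The submitters' processing notes also name FastQC and edgeR.

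The analysis used edgeR 4.0.16 in R 4.3.3: filterByExpr by group kept 14608 of 24445 symbols, TMM scaled the libraries, and the quasi-likelihood method fitted 1 model of the 12 libraries, with group as its factor (biological coefficient of variation 60.8%). FDR is the Benjamini-Hochberg value over the genes tested, and calls needed an FDR under 0.05 with a 2-fold change, the study's thresholds. Correlations used log2(CPM + 0.5). Levels per kilobase used the GENCODE M21 exon length, known for 96.5% of the genes. The members and the lists were chosen with earlier results of these data known. Named related genes are those called, otherwise the 3 largest changes at an unadjusted p under 0.05 in each list, 16 genes named whatever their values, and the 10 genes most like the members; 1 of the 16 is not reported here. Alternatives were other scalings, DESeq2 1.42.0, the likelihood ratio test, limma-voom (limma 3.58.1), other filters, pairwise fits, the replicate block, the library set, libraries left out and other thresholds. Total-count scaling and the analysis without HF 1 and 2 were added after the data were seen. The model code was tested on simulated data. Figures were drawn with matplotlib 3.10.9.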

Additional observations from a re-analysis of the deposited data

Results flagged for a closer look

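In 108 groups of 4 values (the 10 genes and the related genes named, in each of the 3 groups), 6 held a single library whose gap to the nearest of the others, as a share of the whole range, was above Dixon's 95% critical value. Chance flags about 1 in 20 such groups. Among the 10 immediate early genes there were 2, both in Ct: Jun was at 3397 CPM in Ct 3, below 4618 to 4828 CPM in the other Ct libraries, and Egr1 at 4917 CPM in Ct 1, above 3692 to 3888 CPM. The other 4 were also in Ct. Il1b was at 669 CPM in Ct 4 (others 1333 to 1357 CPM), Hspb1 at 43.4 CPM in Ct 1 (16.4 to 20.3 CPM), Batf3 at 42.1 CPM in Ct 2 (23.3 to 25.8 CPM) and Dusp2 at 137 CPM in Ct 2 (77.3 to 82.0 CPM).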

How the results depend on the processing

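With the library set as a covariate, the median log2 fold change of the 10 genes in HF against Ct was −0.2233, and Hsp90aa1 turned from −1.06 to 0.7828 in that comparison (edgeR FDR 0.57). Without HF 1 and 2 the median was −1.065. The medians kept their sign against Ct in all other settings. Of the 10 genes, DESeq2 and the likelihood ratio test each called 1 (Fosb) in ECH (1.7% and 1.49% of all genes) and 1 (Fosb) in HF against Ct (2.3% and 1.87%), and 1 (Atf3) was called in ECH against HF with the set as a covariate (1.86%) and within set B (2.49%).

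Over all genes, 52 were called in ECH against Ct, 55 in HF against Ct and 0 in ECH against HF. DESeq2 called 248, 336 and 47, the likelihood ratio test 218, 273 and 48, and limma-voom 84 and 130 against Ct. The set as a covariate gave 22, 208 and 272, and libraries of 1 set only gave 1 for ECH against Ct (set A) and 370 for ECH against HF (set B). Fitting only the groups compared gave 8 for ECH against Ct, and leaving out HF 1 and 2 gave 30 for ECH and 8 for HF. Leaving out each library in turn gave 11 (without Ct 1) to 95 (without Ct 3) for ECH and 15 (without Ct 1) to 103 (without Ct 3) for HF.

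Of the related genes, 0 were called in ECH against Ct, 2 in HF against Ct and 0 in ECH against HF. DESeq2 called 4, 8 and 1, the likelihood ratio test 5, 8 and 1, and limma-voom 3 in ECH against Ct. The 8 in HF against Ct were 1 higher and 7 lower under each of these 2 tests. With the set as a covariate 7 were called there, 6 higher and 1 lower, beside 208 of all genes. In ECH against HF that fit called 10, 2 higher and 8 lower (1.86% of all genes). Set B alone gave 15 in that comparison, 2 higher and 13 lower (2.49%). Without a minimum fold 1 was called in ECH against Ct. Without Ct 2 and HF 1 together 1 was called in either comparison with Ct, and without HF 1 and 2 there were 0 in HF. With a library left out the count was 0 to 2 in ECH against Ct and 0 to 2 in HF against Ct.

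With the replicate number as a block, 22 genes were called in ECH against Ct and 18 in HF against Ct, and 0 related genes in HF against Ct. The numbers do not pair the mice: over 12 pairs of libraries with the same number, r of the deviations from the group means lay between −0.135 and 0.114, and 2 were over 0.1. The causes of these shifts were not tested. The lowest value of the 10 genes in any library was 36.3 CPM. What limited the number of calls was not tested.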
